A study of Mus musculus with 16 samples.

Results

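The mouse metallothionein genes Mt1, Mt2 and Mt3 were followed across bulk RNA-seq libraries of the dorsal hippocampus. They are the 3 rows, of 24972 genes in each file, whose symbol is one of these names. They were chosen by values of these same libraries, by which contrast is not recorded, so every comparison counts as used and their levels and fold changes are a description with no test. The libraries came from adult ArcCreERT2::eYFPflx mice on a C57BL/6 background, 3 to 4 months old, an allele pair that both groups carried, in which the Arc promoter drives an inducible Cre recombinase and recombined cells express eYFP. Trained mice learned over 4 trials of 30 min to avoid a shock zone on a rotating arena (active place avoidance, APA). Untrained mice walked the same arena with the shock off. All mice had a 10-min retention test with no shock 24 h after the last session, and tissue was taken 60 min after that test. CA1, CA3 and dentate gyrus (DG) were cut out by hand, and the pieces of 1 animal were pooled by subregion. For CA1 there were 3 libraries of each group. CA3 and DG each had 3 trained but only 2 untrained ones. The study's question was which genes differ in these subregions after memory retention.

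Metallothioneins are small, cysteine-rich proteins that bind zinc and copper and buffer their free ions. Mt1 and Mt2 are the inducible forms: zinc activates the transcription factor Mtf1, which binds metal response elements in their promoters, and glucocorticoids and oxidative stress also raise them. In brain they are known mainly from astrocytes. Mt3 is the form most typical of brain, made in neurons and astrocytes, and responds little to metals. Mt4 is a form of stratified epithelia.

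The 4 genes stand side by side on the plus strand of chromosome 8 (GRCm38, GENCODE vM21), within 43131 nt. Mt4 lies from 94137197 to 94139031, Mt3 from 94152607 to 94154146, Mt2 from 94172664 to 94173568 and Mt1 from 94179082 to 94180327. Only 5514 nt separate the end of Mt2 from the start of Mt1. The first listed transcript of Mt1, Mt2 and Mt3 has 3 exons each and is 549, 511 and 536 nt long. An antisense gene, Gm45774, overlaps Mt2 and is not among the genes of the files, and whether the counting used strand is not given in the sources used here. No stretch of 31 bases was shared between transcripts of 2 metallothioneins, so reads of that length can be told apart.

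The promoters are shown because Mt1 and Mt2 moved together and Mt3 did not. Capitals mark matches, on either strand, to the core of the metal response element, the motif of Mtf1 (TGCACNC or TGCGCNC). They come from RefSeq (GRCm38.p6, plus strand) and run from 250 bases before the start that RefSeq gives to 30 bases after it, at chr8:94178839-94179118 for Mt1, chr8:94172368-94172647 for Mt2 and chr8:94152357-94152636 for Mt3.
Mt1: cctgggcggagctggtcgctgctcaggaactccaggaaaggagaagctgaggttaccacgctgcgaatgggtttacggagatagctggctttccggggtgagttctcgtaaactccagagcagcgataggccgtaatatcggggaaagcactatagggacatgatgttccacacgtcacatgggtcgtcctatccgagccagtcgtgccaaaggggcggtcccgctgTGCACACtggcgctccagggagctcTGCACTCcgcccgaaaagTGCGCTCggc
Mt2: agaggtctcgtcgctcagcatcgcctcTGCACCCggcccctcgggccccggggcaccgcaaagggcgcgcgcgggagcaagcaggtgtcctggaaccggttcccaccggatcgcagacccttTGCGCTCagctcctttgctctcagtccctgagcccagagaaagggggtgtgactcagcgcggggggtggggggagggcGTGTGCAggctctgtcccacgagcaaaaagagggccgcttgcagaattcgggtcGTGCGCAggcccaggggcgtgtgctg
Mt3: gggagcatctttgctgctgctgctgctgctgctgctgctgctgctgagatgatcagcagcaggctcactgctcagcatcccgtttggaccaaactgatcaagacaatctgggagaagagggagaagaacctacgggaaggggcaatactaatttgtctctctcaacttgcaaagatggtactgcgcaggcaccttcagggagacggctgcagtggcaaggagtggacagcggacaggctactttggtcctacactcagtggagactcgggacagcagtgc

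Within 300 bases (to 50 after the start), Mt1 had 3 matches to the metal response element core, Mt2 had 4 and Mt3 had 1, which starts 27 bases after the start and runs past the printed end. Of 32851 mouse promoters of the same length, 25.7% held at least 1 match, 1.97% at least 3 and 0.517% at least 4. Mt2 also had 1 match to the antioxidant response element core (TGACNNNGC, found in 12.4% of promoters), and Mt1 had 3 GC boxes (GGGCGG, at least 3 in 10.7% of promoters), of which 1 shares a base with a metal response element. None of the 3 promoters held the E-box CACGTG (7.15% of promoters) or the glucocorticoid response element searched as a full palindrome (0.00913% of promoters). A match is only a run of letters, and binding was not measured.

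Values are estimated counts per gene that the authors had scaled between libraries. Their sum ran from 7607326 to 7984931 over the 16 libraries. Several facts about the libraries bear on what follows. To begin with, the subregion labels were checked against 11 marker genes, and for none of them did every library of its subregion lie above all others. Prox1, the defining transcription factor of dentate granule cells, had a median of 3367 in DG and 3618 outside it. The CA1 marker Wfs1 had a median of 713.3 in CA1 and 358.1 outside it. CA1, CA3 and DG are therefore names of dissected pieces here. Next, 7 libraries (those of trained CA1 and untrained DG, and replicates 1 and 2 of trained CA3) had 7567 to 9759 genes at 0, against 3124 to 5944 in the other 9. Last, Xist, the RNA that coats the inactive X chromosome, lay from 7601.3 to 19592.0 in the trained libraries, and from 25.5 to 52.4 in 6 of 7 untrained libraries. Over all libraries, all 4 Y-linked genes listed were lower after training (limma adjusted p from 0.0106 to 0.0198). The study's methods place both sexes in each group. The exception, untrained CA3 replicate 1, had Xist at 10587.5, against its animal's other libraries, with the Y-linked gene Ddx3y at 201.4. The metallothionein training effects in CA3 are therefore given with and without it. Trained DG replicate 3 also held both, with Xist at 7601.3 and Ddx3y at 255.2, against Ddx3y of 1.8 and 1.7 in the other trained DG libraries. In trained CA1 replicates 1 and 3 and trained CA3 replicate 3, Ddx3y was 70.9, 100.6 and 92.9. The source of these mixed values was not tested. Training and sex-linked transcripts thus cannot be told apart in nearly all libraries.

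Mt1 was higher after training in CA1 and CA3, near 900 to 1000 in trained mice and near 500 in untrained mice. In untrained CA1, Mt1 was 471.8, 510.1 and 450.1 in replicates 1, 2 and 3. In trained CA1 it was 1026.1, 866.0 and 767.1. All 3 trained libraries lay above all 3 untrained ones, as for 12.9% of the 13588 genes tested in CA1. In CA3, Mt1 was 527.3 and 470.7 in the untrained libraries and 1115.9, 881.1 and 946.4 in the trained ones. Here, too, the groups did not overlap, and 17.2% of 13848 genes had all trained libraries above the untrained ones in CA3.

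For Mt1, DG differed from CA1 and CA3 in that its untrained libraries lay far apart. Mt1 was 501.7 in untrained DG replicate 1 and 1125.3 in untrained DG replicate 3. The trained DG libraries had 1060.4, 869.3 and 879.1. The value of untrained DG replicate 3 was the highest Mt1 value of all 16 libraries, and the groups overlapped in DG, where 17.5% of 13935 genes had all trained libraries above the untrained ones. Outside that library, Mt1 lay from 450.1 to 527.3 in untrained mice and from 767.1 to 1116 in trained mice of all subregions.

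Mt2 had the same order of groups as Mt1 at a lower level. In CA1 it was 294.7, 298.5 and 303.1 in untrained mice and 538.2, 551.9 and 437.4 in trained mice. In CA3 it was 451.7 and 306.2 in untrained mice and 562.6, 524.8 and 643.5 in trained mice. The untrained CA3 library with the higher value was replicate 1, whose Xist went against its animal. In DG, Mt2 was 341.2 and 641.6 in untrained mice and 607.5, 502.7 and 589.3 in trained mice, with replicate 3 again the high untrained library. So trained and untrained Mt2 values were apart in CA1 and CA3 and overlapped in DG.

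Mt3 did not follow training. In CA1 it was 1406.7, 1531.1 and 1484.4 in untrained mice and 1342.5, 1481.1 and 1445.6 in trained mice. In CA3 it was 1349.4 and 1591.0 in untrained mice and 1398.2, 1371.8 and 1623.3 in trained mice. In DG it was 1753.6 and 1309.0 in untrained mice and 1463.8, 1579.1 and 1823.8 in trained mice. The groups overlapped in every subregion. Mt4 was at 0 in 14 of 16 libraries and reached at most 1.76, in untrained CA1 replicate 3.

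**Figure D1:**
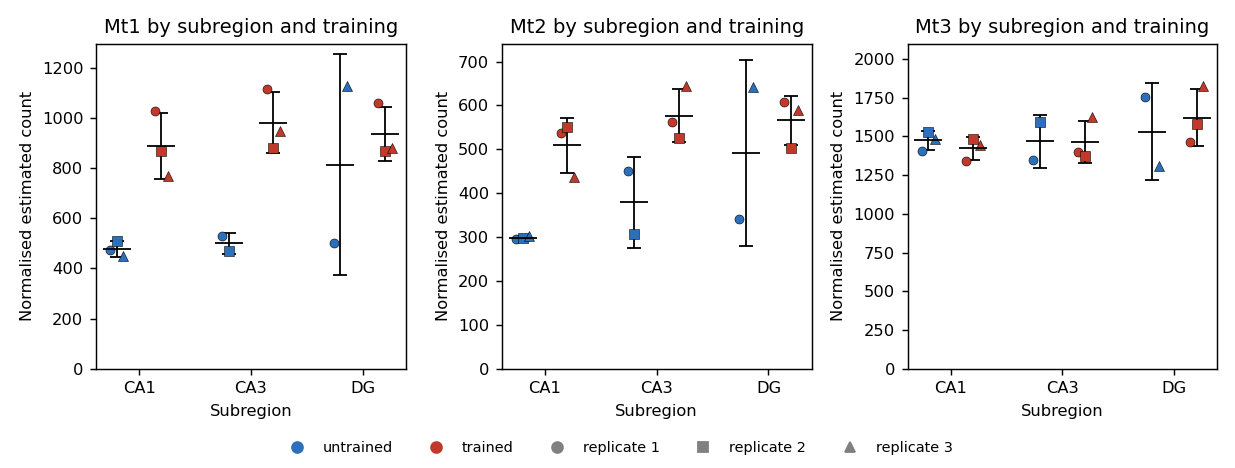
Normalised estimated count (y axis, linear from 0) of Mt1, Mt2 and Mt3 in each library by subregion (x axis); symbols are single libraries, coloured by training and shaped by replicate, and bars give the group mean with SD. The 3 trained CA1 libraries lie at 767.1 or above for Mt1 and the untrained ones at 510.1 or below, while untrained DG replicate 3 stands at 1125.3 and Mt3 shows no separation.

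In group means for CA1, Mt1 was 886.4 ± 130.7 (SD, n = 3) after training. Untrained mice had 477.4 ± 30.39 (SD, n = 3). The fitted log2 fold change was 0.88 (standard error 0.093), a 1.84-fold difference on the log2(value + 2) scale used for all fold changes here. In CA3, Mt1 was 981.1 ± 121.2 (SD, n = 3) in trained mice, whereas the untrained mean was 499 ± 40.05 (SD, n = 2). This is a log2 fold change of 0.97 (standard error 0.106). Without untrained CA3 replicate 1 it was 1.05. In DG, Mt1 was 936.3 ± 107.6 (SD, n = 3) against 813.5 ± 440.9 (SD, n = 2), and the log2 fold change was 0.31, with a standard error of 0.436. It became 0.89 without untrained replicate 3 and -0.27 without untrained replicate 1, so its direction turned when untrained replicate 1 was left out.

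For Mt2, the CA1 mean was 509.2 ± 62.53 (SD, n = 3) after training, the untrained mean was 298.8 ± 4.194 (SD, n = 3), with a log2 fold change of 0.76 (standard error 0.095). In CA3 the trained mean was 576.9 ± 60.64 (SD, n = 3) and the untrained one 378.9 ± 102.9 (SD, n = 2), which gave 0.63 (standard error 0.167). Without untrained CA3 replicate 1 it rose to 0.90, and without untrained replicate 2 it was 0.35. The size of the Mt2 difference in CA3 therefore depends on which untrained library is kept. DG gave 0.27 (standard error 0.322), turning to 0.72 without untrained replicate 3 and to -0.18 without untrained replicate 1.

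Mt3 had log2 fold changes of -0.05 (standard error 0.060) in CA1, -0.0049 (standard error 0.099) in CA3 and 0.09 (standard error 0.137) in DG. The CA3 value was -0.12 without untrained replicate 1 and 0.11 without untrained replicate 2. In DG it ran from -0.12 without untrained replicate 3 to 0.30 without untrained replicate 1, so its sign turned in both subregions. With all 16 libraries in 1 fit and subregion as a term, the log2 fold change was 0.73 (standard error 0.159) for Mt1, 0.57 (standard error 0.130) for Mt2 and 0.0073 (standard error 0.061) for Mt3. Leaving out the library untrained DG replicate 3, an alternative added after seeing its values, gave 0.91 for Mt1 and 0.70 for Mt2.

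**Figure D2:**
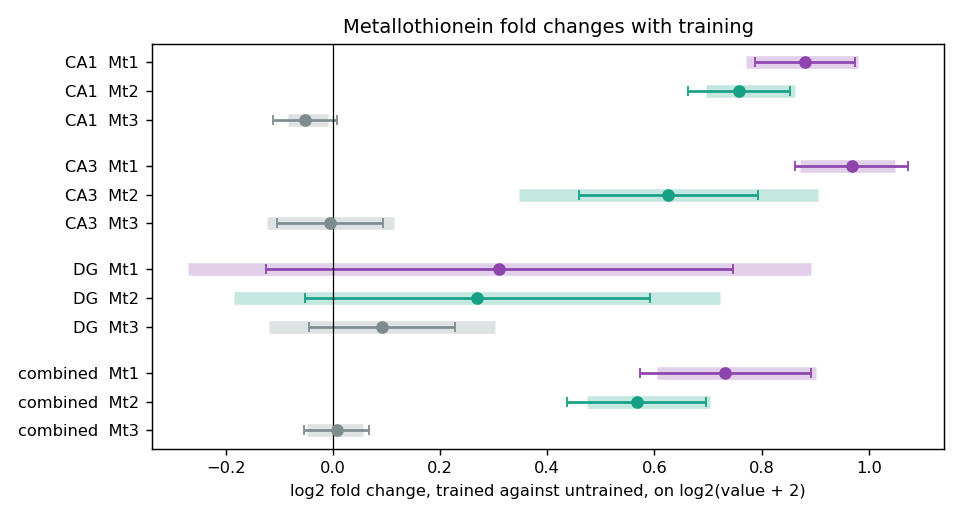
Log2 fold change (x axis, trained against untrained, on log2(value + 2)) of each gene in CA1, CA3, DG and all libraries together (rows); points are fitted values, thin bars 1 standard error, and pale bands the range when 1 replicate is left out. The bands of Mt1 and Mt2 stay above 0 in CA1 and CA3 and cross 0 in DG (-0.27 to 0.89 for Mt1), and those of Mt3 run from -0.084 to -0.0097 in CA1, -0.12 to 0.11 in CA3 and -0.12 to 0.30 in DG.

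Training effects were also set against each other between subregions. The log2 fold change of Mt1 in CA1 exceeded that in DG by 0.57 (standard error 0.364), and that in CA3 exceeded DG by 0.66 (standard error 0.383). CA1 and CA3 differed by only -0.09 (standard error 0.364). For Mt2 the differences were 0.49 (standard error 0.313) between CA1 and DG, 0.36 (standard error 0.330) between CA3 and DG and 0.13 (standard error 0.313) between CA1 and CA3. Leaving out untrained DG replicate 3 leaves 1 untrained DG library. The DG effect was then 0.89 for Mt1 and 0.72 for Mt2, beside 0.88 and 0.76 in CA1. Without untrained DG replicate 1 instead, it was -0.27 and -0.18. The differences from DG thus depend on which untrained library is kept. For Mt3 all differences between subregions ran from -0.14 to -0.05.

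Per kb of the first transcript, Mt3 was the highest of the 3 in every group. Its group mean ran from 2655 to 3027 normalised counts per kb, that of Mt1 from 869.5 to 1787 and that of Mt2 from 584.7 to 1129. Ordered by group mean, Mt1 ran from trained CA3 (981.1) through trained DG, trained CA1, untrained DG and untrained CA3 to untrained CA1 (477.4), and every neighbouring pair in that order overlapped. Mt2 had the same order, from 576.9 to 298.8, and of its neighbours only untrained CA3 and untrained CA1 did not overlap. For Mt3 the order ran from trained DG (1622) to trained CA1 (1423), and all neighbours overlapped.

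The subregions were also compared with each other, averaged over training. On the log2 scale Mt1 in CA1 minus DG was -0.37 (standard error 0.182), in CA1 minus CA3 -0.11 (standard error 0.182) and in CA3 minus DG -0.26 (standard error 0.192). Mt2 gave -0.40 (standard error 0.157), -0.25 (standard error 0.157) and -0.15 (standard error 0.165) in the same order. Mt3 gave -0.11, -0.02 and -0.10. Leaving out the animal untrained 3, with both its CA1 and its DG library, brought CA1 minus DG to -0.06 for Mt1 and -0.18 for Mt2. Leaving out the animal untrained 1 brought it to -0.66 for Mt1, -0.62 for Mt2 and 0.0098 for Mt3. For Mt2, CA1 minus CA3 was -0.10 without the animal untrained 1 and -0.39 without untrained 2, and CA3 minus DG ran from -0.52 without untrained 1 to 0.075 without untrained 3.

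Ratios within a library do not depend on how libraries were scaled. Mt1 over Mt3 ran from 0.482 to 0.798 in the 9 trained libraries, with a median of 0.585. In untrained libraries it ran from 0.286 to 0.391 in 6 and was 0.86 in untrained DG replicate 3. Relative to a neighbouring gene of like length, Mt1 thus separated trained from untrained libraries apart from the DG library already named. Mt2 over Mt3 ran from 0.303 to 0.415 in trained libraries and from 0.192 to 0.21 in 5 untrained ones. It was 0.335 in untrained CA3 replicate 1 and 0.49 in untrained DG replicate 3, so for Mt2 both of these lay within or above the trained range. Mt1 over Mt2 stayed between 1.17 and 1.98 in all 16 libraries, with the lowest value in untrained CA3 replicate 1.

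**Figure D3:**
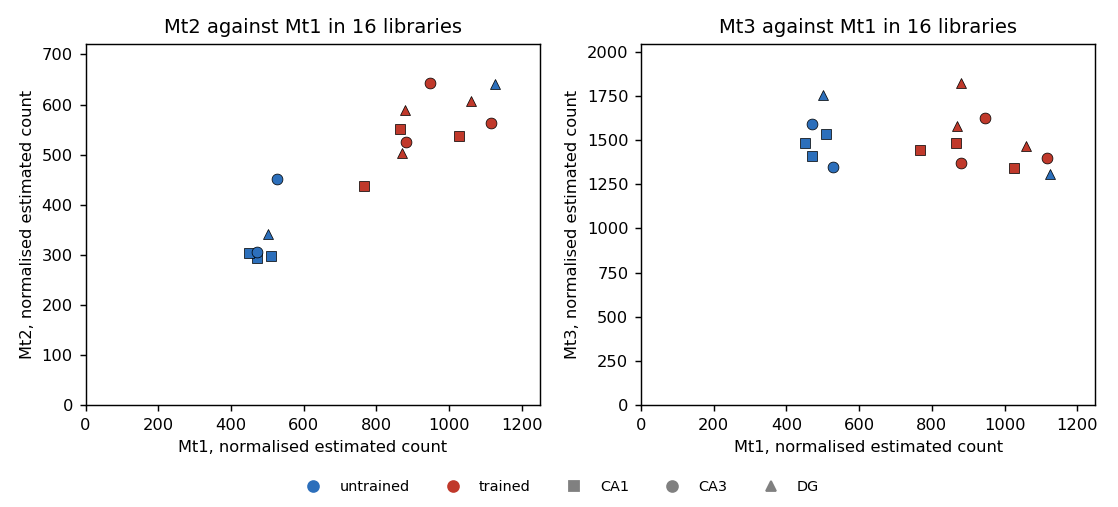
Mt2 (left) and Mt3 (right) against Mt1, all in normalised estimated counts on linear axes, for 16 libraries coloured by training and shaped by subregion. Mt2 rises with Mt1 over the whole range, from 294.7 to 643.5, with untrained DG replicate 3 (1125.3 and 641.6) at the upper end beside the trained libraries, while Mt3 stays from 1309 to 1824 at every level of Mt1.

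Other features of the libraries were set beside the metallothionein values. Untrained CA3 replicate 1, with Xist at 10587.5, had Mt1 at 527.3, near the other untrained libraries outside DG replicate 3, but Mt2 at 451.7, above the 294.7 to 341.2 of those libraries and above trained CA1 replicate 3 (437.4). Untrained DG replicate 3, with Xist at 52.2, had the highest Mt1 and an Mt2 of 641.6. With a score of sex-linked transcripts as a covariate, the combined log2 fold change was 0.67 for Mt1 with its standard error up from 0.159 to 0.398. For Mt2 it was 0.37 (standard error 0.319), and for Mt3 0.30 (standard error 0.129), so Mt2 and Mt3 lay close together under this covariate. In CA1, the 3 trained libraries had many genes at 0 and the untrained ones few, so this split and training cannot be told apart there. In DG, both untrained libraries had many genes at 0, with Mt1 at 501.7 and 1125.3, and the trained ones few. Adding the split by genes at 0 as a covariate over all libraries left 0.66 for Mt1 and 0.53 for Mt2.

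Transcripts of all 3 genes are short and rich in G and C: their length lay at the 8.72 to 9.61 percentile of all genes, and their GC content (55.6 to 62.3%) at the 80.2 to 97.7 percentile. Taking out the dependence on GC content and length in each library, an alternative added after seeing the data, lowered every training effect. Mt1 came to 0.65 in CA1, 0.76 in CA3 and 0.15 in DG, Mt2 to 0.54, 0.47 and 0.10, and Mt3 to -0.37, -0.32 and -0.09. The gap between Mt1 and Mt3 hardly moved, from 0.93 to 1.01 in CA1, from 0.97 to 1.07 in CA3 and from 0.22 to 0.24 in DG. Whether Mt3 is called level or lower after training therefore depends on this correction, whereas the rank of Mt1 and Mt2 above Mt3 does not.

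The genes on either side of the cluster served as a check of the locus. Bbs2, which belongs to the complex that traffics cargo to cilia, had log2 fold changes of 0.09, 0.17 and -0.12 in CA1, CA3 and DG (limma adjusted p = 0.785, 0.566 and 0.746). Nup93, a nuclear pore scaffold, had -0.09, -0.23 and -0.04 (limma adjusted p = 0.568, 0.311 and 0.888), and its unadjusted p in CA3 was 0.048. Neither gene passed the test, which 5.23%, 0.852% and 3.39% of all genes did.

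Genes of zinc and copper handling were then tested with limma over all genes, with Benjamini-Hochberg adjustment. Of 35 listed zinc exporters, zinc importers, copper genes and Mtf1, 31 were measured above the filter. One rose in CA1 and 1 in CA3 (3.23% of the tested list each, against 5.23% and 0.852% of all genes tested), and it was Cox17 both times. None passed in DG, where 3.39% of all genes did. There 6 of the 31 had an unadjusted limma p under 0.05, as did 2712 of all 13935 genes. Over all libraries Cox17 rose and Slc30a7, a zinc transporter of the Golgi, fell by 0.18 on the log2 scale (limma adjusted p = 0.0329, 10.3% of all genes passed). When the score of sex-linked transcripts entered this fit, limma called 0 of 14673 genes over all libraries (1702 at an unadjusted p under 0.05), so every call over all libraries given here is lost under it. The median log2 fold change of the list was 0.02 in CA1, -0.05 in CA3 and 0.04 in DG, beside medians over all genes of 0.00, -0.01 and 0.00.

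Cox17, the copper chaperone that delivers copper for cytochrome c oxidase, had the pattern of Mt1 in most libraries. It was 51.72, 93.19 and 79.32 in untrained CA1 and 154.2, 156.8 and 166.9 in trained CA1. In CA3 it was 80.39 and 85.47 in untrained and 166.8, 148.1 and 162.0 in trained mice. In DG it was 53.36 in untrained replicate 1 and 171.3 in untrained replicate 3, and 165.8, 193.5 and 141.9 in trained mice. Untrained DG replicate 3 lay among the trained libraries for Cox17 and above all of them for Mt1. The log2 fold change was 1.11 in CA1 (standard error 0.182, limma adjusted p = 0.00113), 0.92 in CA3 (standard error 0.127, limma adjusted p = 0.0101) and 0.78 in DG (standard error 0.587, limma adjusted p = 0.574). The CA3 call was lost without trained replicate 2 (limma adjusted p = 0.0776). Leaving out either untrained CA3 library leaves 1 in that group, too few for a call.

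The transcripts of the regulator and the classic co-target of the metal response gave log2 fold changes near 0. Zinc levels and Mtf1 activity were not measured, and the part of the metal response in the metallothionein values was not tested. Mtf1, the zinc-sensing transcription factor, had log2 fold changes of -0.08, -0.06 and 0.0046 in CA1, CA3 and DG (limma adjusted p = 0.749, 0.768 and 0.988). Slc30a1, the plasma membrane zinc exporter that Mtf1 also drives, had 0.06, -0.06 and 0.04 (limma adjusted p = 0.783, 0.889 and 0.861). In single libraries Slc30a1 ran from 418.1 to 529.8 in trained and from 440.7 to 485.6 in untrained CA1, where Mt1 had separated the groups. Slc30a3, which loads zinc into synaptic vesicles, had 0.09, -0.13 and 0.03 (limma adjusted p = 0.565, 0.712 and 0.911).

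Of 18 glucocorticoid-responsive genes and receptors, 1 rose and 1 fell in CA1, and none passed the test in CA3 or DG. An unadjusted limma p under 0.05 was seen for 11 of the 18 in CA1, 6 in CA3 and 5 in DG. Among all genes tested it was seen for 2565 of 13588, 2182 of 13848 and 2712 of 13935. Of all genes tested, 5.23% passed for CA1, 0.852% for CA3 and 3.39% for DG. Tsc22d3 (GILZ, a glucocorticoid-induced leucine zipper protein) rose by 0.37 in CA1 (standard error 0.099, limma adjusted p = 0.0345). Nr3c2, the mineralocorticoid receptor, fell by 0.24 (standard error 0.056, limma adjusted p = 0.017). The Tsc22d3 call was lost without trained replicates 2 or 3 or untrained replicates 1 or 2 (adjusted p up to 0.19), and that of Nr3c2 without trained replicates 1 or 2 or untrained replicate 2 (up to 0.0929). Fkbp5, a chaperone induced by glucocorticoids, had 0.18, -0.01 and -0.02 (limma adjusted p = 0.179, 0.959 and 0.935). Nr3c1, the glucocorticoid receptor, had -0.20 in CA1 (limma adjusted p = 0.0582), -0.21 in CA3 (0.319) and -0.05 in DG (0.756). Over all libraries 3 rose (Tsc22d3, Ddit4 and Plin4) and 3 fell (Klf9, Nr3c1 and Nr3c2), where 10.3% of all genes passed.

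Of 14 genes of the oxidative stress response, 1 rose and 1 fell in both CA1 and CA3, and none passed the test in DG. Of all genes, 5.23%, 0.852% and 3.39% passed in CA1, CA3 and DG. An unadjusted limma p under 0.05 was seen for 5 of the 14 in CA1, 5 in CA3 and 4 in DG. Among all genes tested it was seen for 2565 of 13588, 2182 of 13848 and 2712 of 13935. Slc7a11, the cystine importer that feeds glutathione synthesis, was 677.3, 691.1 and 655.3 in untrained CA1 and 444.3, 424.2 and 456.0 in trained CA1. Its log2 fold change was -0.61 in CA1 (standard error 0.075, limma adjusted p = 6.16e-05), -0.52 in CA3 (standard error 0.093, limma adjusted p = 0.0343) and 0.13 in DG (standard error 0.090, limma adjusted p = 0.487). Gpx4, a peroxidase of lipid hydroperoxides, had 0.35 in CA1 (limma adjusted p = 0.0365), 0.42 in CA3 (0.0344) and 0.21 in DG (0.179). The CA1 call of Slc7a11 held with every replicate left out. Its CA3 call was lost without trained replicate 2 (adjusted p = 0.249). Leaving out either untrained CA3 library leaves 1 in that group, too few for a call. The Gpx4 call in CA1 held only without untrained replicate 3 (adjusted p otherwise up to 0.179). In CA3 the Gpx4 call held without trained replicate 1 and was lost without trained replicate 2 or 3. Both Gpx4 calls were lost after the GC and length correction. Over all libraries 3 rose (Gpx4, Gsr and Keap1) and 3 fell (Nfe2l2, Prdx1 and Slc7a11), again beside 10.3% of all genes and with all 6 calls lost under the sex-linked covariate.

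**Figure D4:**
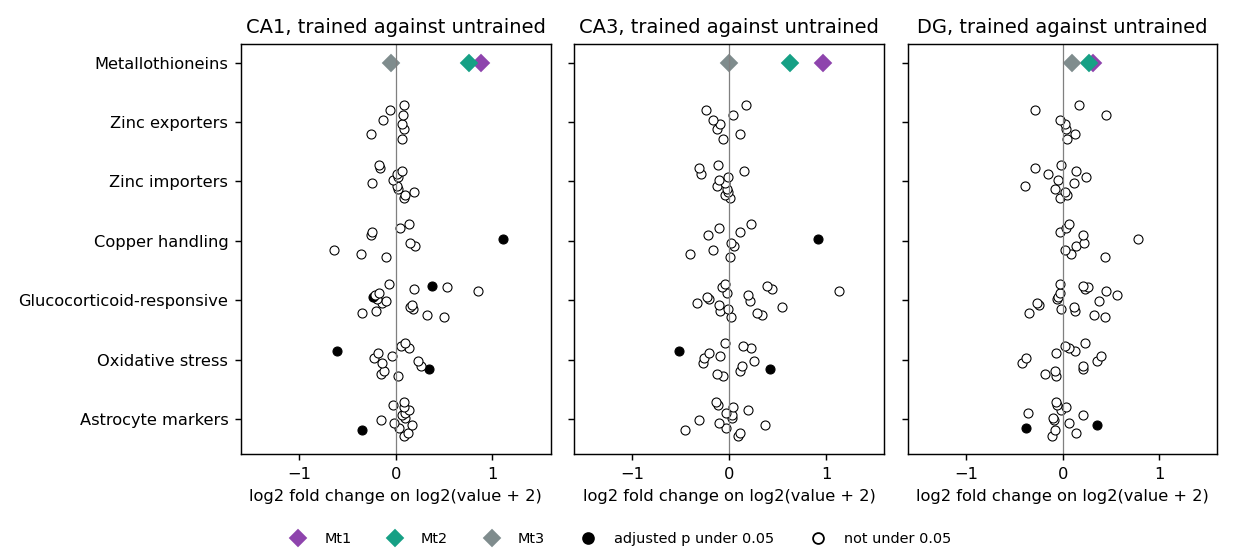
Log2 fold change (x axis, trained against untrained, on log2(value + 2)) in CA1, CA3 and DG of the 3 metallothioneins (diamonds) and of each tested gene in 6 fixed lists (circles, filled where the limma adjusted p is under 0.05). The filled circle far to the right among copper genes in CA1 and CA3 is Cox17 (1.11 and 0.92), and that on the left of the oxidative stress row is Slc7a11 (-0.61 and -0.52).

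Astrocytes are a main source of Mt1 and Mt2, so their markers were read in the same libraries. Of 14 astrocyte genes, Aqp4, the water channel of astrocyte endfeet, fell by 0.35 in CA1 (standard error 0.060, limma adjusted p = 0.00149) and 13 did not pass, beside 5.23% of all genes that did. None passed in CA3, where 3 had an unadjusted limma p under 0.05, as did 2182 of all 13848 genes. Aqp4 was among the 3, at -0.46 (limma adjusted p = 0.0678). In DG, Fgfr3 rose by 0.36 (limma adjusted p = 0.0304) and Atp1b2, a sodium pump subunit, fell by 0.38 (limma adjusted p = 0.00686). The Fgfr3 call was lost without any 1 of the trained libraries (adjusted p up to 0.159) and that of Atp1b2 without trained replicate 2 (0.0638), and 3.39% of all genes passed there. Over all libraries Fgfr3 rose by 0.29 (limma adjusted p = 0.00128), and Aqp4 and Gja1 fell by 0.30 and 0.18 (limma adjusted p = 0.00512 and 0.03), beside 10.3% of all genes that passed there. Gfap had -0.01, -0.11 and 0.06 (limma adjusted p = 0.938, 0.68 and 0.656), and Aldh1l1 had 0.08, 0.10 and -0.11 (limma adjusted p = 0.707, 0.704 and 0.632). The summed astrocyte values ran from 72068 to 73911 in trained and from 68915 to 70671 in untrained CA1, from 62015 to 71675 against 62222 to 69137 in CA3 and from 65134 to 71771 against 65157 to 70284 in DG. The sums were slightly apart in CA1 and overlapped elsewhere, and they mostly report the glutamate transporter Slc1a2, which alone had a mean of 52220 in trained and 49210 in untrained CA1. In bulk tissue, fewer cells of a type and less RNA per cell cannot be told apart.

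Other cell types that a dissected piece can hold also moved in places. In CA1, Vwf was the only one of 10 endothelial genes to pass the test (log2 fold change 0.67, limma adjusted p = 0.00466), 9 of the 10 had log2 fold changes above 0, and the endothelial sum ran from 1519.7 to 1613.6 in trained against 1267.6 to 1384.2 in untrained libraries. Dcn, a proteoglycan of meningeal fibroblasts, fell by 1.198 there (limma adjusted p = 0.00274), 1 of 7 leptomeningeal genes. Of the 7, 2 had log2 fold changes above 0. The leptomeningeal sums overlapped in CA1, from 243.3 to 372.9 in trained and from 283.3 to 380.5 in untrained libraries. None of 8 choroid plexus genes passed in CA1 (1 at an unadjusted limma p under 0.05), but Ttr, the transthyretin of choroid plexus, was 2008 in trained replicate 1, which also had the highest Mt1 of CA1. In trained replicates 2 and 3 Ttr was 62.98 and 62.17, and in untrained CA1 it ran from 621.3 to 863.2. The choroid plexus sum ran from 1001 to 4451 in trained and from 2450 to 2502 in untrained CA1. In CA3, Ttr and Clic6 of the choroid plexus fell by 3.29 and 2.55 (limma adjusted p = 7.26e-06 and 0.0343), 2 of 9 tested. Clic6 met the filter on low values only through the untrained libraries (39.63 and 43.31, against at most 9.838 in trained ones). Its fall is therefore a description and not a test. The choroid plexus sum ran from 953 to 1488 in trained against 1837 to 2530 in untrained CA3, and the leptomeningeal sum from 207.4 to 285.6 against 323 to 374.8. In DG, Flt1 fell by 0.94 (limma adjusted p = 0.00142), 1 of 10 endothelial genes. Rgs5 fell by 0.51 (limma adjusted p = 0.0464), 1 of 5 pericyte genes tested, of which 2 had log2 fold changes above 0. The Rgs5 call was lost in most fits with 1 library left out. Rgs5 alone had a mean of 411.2 in trained and 594 in untrained DG, a large part of the pericyte sum. The endothelial sum there ran from 856.5 to 966.1 in trained against 1042 to 1413 in untrained libraries, the pericyte sum from 906.6 to 926 against 969.7 to 1299, and the oligodendrocyte sum from 15257 to 16559 against 17185 to 22013. The Clic6 call was lost without trained replicate 2 (adjusted p = 0.101). No other gene of these lists passed in a single subregion, where 5.23% (CA1), 0.852% (CA3) and 3.39% (DG) of all genes did. No microglial or oligodendrocyte gene passed in any of the 3 subregions, with 0 to 1 of 10 and 0 to 4 of 10 at an unadjusted limma p under 0.05. The 4 were in DG, where 2712 of all 13935 genes were under it. No marker list had a gene at 0 in all libraries. The part of these cell types in the metallothionein values was not tested.

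Markers of the dissected subregions moved with training as well. In CA1, Fibcd1, a CA1 gene, fell by 1.32 (limma adjusted p = 0.0139), and the CA3 genes Grik4 and Nectin3 rose by 0.56 and 0.83 (limma adjusted p = 0.00083 and 2.5e-05). In DG, Prox1 fell by 0.31 (limma adjusted p = 0.00965), from 4118 and 4183 in untrained to between 3292 and 3367 in trained libraries. The calls of Fibcd1 (adjusted p = 0.0784 without trained replicate 3) and Prox1 (up to 0.0659 without 1 trained library) were lost in such fits, and no other subregion marker passed in a single subregion, beside 5.23%, 0.852% and 3.39% of all genes in CA1, CA3 and DG. Their part in the metallothionein values was not tested either.

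The genes most like each metallothionein were sought among 10767 genes of mean value at least 50, by Pearson's r over the 16 libraries after removing subregion means on log2(value + 2). For Mt1 they were Mrpl2 (0.955), Rpph1 (0.944), Hist1h4d (0.942), Mt2 (0.937) and Jund (0.935). For Mt2 they were Mt1 (0.937), Wdr18 (0.924), Uqcr11 (0.92), Hist4h4 (0.913) and Nrgn (0.909). Each inducible form was thus among the 5 genes most like the other. For Mt3 they were Ube2g2 (0.867), Fdps (0.824), Drap1 (0.79), Cox7a2 (0.77) and Prnp (0.762). Mt3 was not like the other metallothioneins, with r of -0.413 to Mt1 and -0.355 to Mt2. These correlations describe libraries that share animals, scaling and training groups.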

How the data were processed

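Bulk RNA-seq libraries of CA1, CA3 and DG from 3 trained and 3 untrained mice (16 libraries) were analysed, grouped by their titles. The deposited signal is an estimated count per gene: the authors trimmed the reads, aligned them with STAR, quantified genes with Salmon and scaled the estimates between libraries. RNA with an integrity number above 7 was depleted of ribosomal RNA, although the molecule is labelled polyA. The processing notes name GRCm38, bcl2fastq 2.20, FastQC, and Trim Galore among others, while the methods name another build beside mm10. The values are not whole numbers, and whole reads could not be recovered, so the depth is unknown and no counting interval is given.

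Values were analysed with limma 3.58.1 in R 4.3.3 on log2(value + 2). Variances were moderated along a trend on the mean with the robust option, p-values were adjusted by Benjamini-Hochberg over all genes tested, and a call is an adjusted p under 0.05. Genes needed a value of at least 10 in 3 libraries for CA1 and in 2 elsewhere. Each subregion was fitted alone, the combined fit had subregion as a term, and subregions and differences of training effects came from 1 fit of 6 groups. Libraries of 1 animal were treated as independent. The combined fit thus counts subregions of 1 mouse as replicates of training, so its p-values and standard errors may be too small. The fit was tested on simulated data. The smallest mean absolute log2 difference between 2 libraries was 0.132, so none was counted as a repeat.

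Mt1, Mt2 and Mt3, the gene lists and the rules were chosen with earlier results of these data known. The named genes are the metallothioneins, their neighbours, every listed gene called in 1 subregion, 8 genes given whatever their result, and the 5 genes most like each metallothionein. The lists cover zinc transporters, metal-responsive transcription, copper handling, glucocorticoid response, oxidative stress, cell types, subregions and sex-linked transcripts. Deviations from the group mean were correlated between same-numbered trained and untrained libraries (r from -0.204 to 0.0989 over 7 pairs). Libraries of the same number and training from 2 subregions gave r from -0.28 to 0.212 over 14 pairs. The check could thus not detect libraries of 1 animal, and nothing is concluded from it. Alternatives were another pseudocount, rescaling, no filter, a replicate block, 1 fit of all libraries, covariates, a GC and length correction, and each replicate left out.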

Additional observations from a re-analysis of the deposited data

Results flagged for a closer look

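Among the listed genes beside the metallothioneins, the training effect itself differed between subregions for Slc7a11 and Atp1b2. For the cystine importer Slc7a11, the log2 fold change in CA1 minus that in DG was -0.735 (limma adjusted p = 0.00213), and in CA3 minus that in DG -0.644 (limma adjusted p = 0.0262). For Atp1b2, a sodium pump subunit of astrocytes, CA1 minus DG was 0.407 (limma adjusted p = 0.0164). These 3 differences share the DG libraries, and of all 14673 genes 404 were called for CA1 minus DG and 24 for CA3 minus DG. With groups of 2 and 3 libraries, an outlying library cannot be told from the spread of its group. In single subregions, the Slc7a11 call in CA1 held with every replicate left out, and the Atp1b2 call in DG was lost without trained replicate 2.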

How the results depend on the processing

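The log2 fold changes of Mt1 and Mt2 in CA1, CA3 and all libraries together stayed above 0 under every alternative run. Mt1 and Mt2 were chosen by values of these same libraries, so this is a description. With the sex-linked covariate, Mt2 over all libraries came close to Mt3, and the standard errors of Mt1 and Mt2 rose. Of 79 alternative counts of genes called, 38 differed from the first by more than 1.5 times. Without the filter on low values, the genes called were 1877 in CA1 (710 with it), 391 between CA1 and DG (594 with it) and 2 between CA3 and DG (1 with it). Fitting all 16 libraries at once gave 413 calls in CA3 in place of 118. Removing the GC and length trend gave 31 in CA3, and log2 fold changes of 0.65 (Mt1), 0.54 (Mt2) and -0.37 (Mt3) in CA1, 0.76 (Mt1) and -0.32 (Mt3) in CA3 and -0.29 (Mt3) over all libraries. The sex-linked covariate left 0 limma calls of 14673 genes over all libraries (1702 at an unadjusted p under 0.05) and a log2 fold change of 0.30 for Mt3. Leaving out the library CA3 untrained 1 gave 1000 calls over all libraries in place of 1517. The cause of these shifts was not tested.

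With the replicate block, CA3 had 1160 calls, CA1 against DG 264, CA1 against CA3 49 and CA3 against DG 0 (660 at an unadjusted limma p under 0.05). The numbers do not pair the trained with the untrained libraries.

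With each replicate left out in turn (in the combined and subregion comparisons, each animal), the genes called ran from 329 (without untrained 1) to 865 in CA1, from 7 (without trained 2) to 680 (without trained 1) in CA3, from 28 (without trained 2) to 1583 (without untrained 3) in DG and from 456 (without untrained 1) to 1873 over all libraries. They ran from 113 (without trained 2) to 432 between CA1 and DG, from 52 (without trained 3) to 180 between CA1 and CA3, and from 0 (without trained 2, with 672 at an unadjusted limma p under 0.05) to 19 (without untrained 3) between CA3 and DG. The log2 fold change of Mt2 in CA3 ran from 0.35 to 0.90. In DG, Mt1 ran from -0.27 to 0.89 and Mt2 from -0.18 to 0.72, the lowest without untrained 1 and the highest without untrained 3. The same animals set the range of CA1 minus DG for Mt1 (-0.66 to -0.058) and of CA3 minus DG for Mt1 (-0.59 to 0.028), Mt2 (-0.52 to 0.075) and Mt3 (-0.20 to 0.068). Depth is unknown, so what it limits was not measured.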
